A study of Drosophila melanogaster with 12 samples.

Results

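The 8 genes described here are markers of enterocytes, the absorptive cells of the Drosophila melanogaster midgut, or genes of brush border or septate junctions. They are mex1, nub, Myo31DF, Myo61F, mesh, Tsp2A, Ssk and cora. All but cora were listed as enterocyte markers, and cora was listed with the genes of pleated and shared septate junctions. The genes were chosen by symbol from a table of 17558 gene rows. All 8 were found and passed the filter on low counts, as did 9686 rows in all. RNA was sequenced from midguts of virgin adults, in 4 groups of 3 libraries, dsxRNAi and control females and dsxRNAi and control males. The stated question was what dsxRNAi does in each sex, dsx being the gene of the sex-specific Doublesex transcription factors.

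In dsxRNAi flies a dsxRNAi transgene stood opposite mex1-Gal4, with tub-Gal80ts over a plain chromosome. In control flies mex1-Gal4 stood over a plain chromosome, with UAS-GFP opposite tub-Gal80ts. All groups shared the y[1] v[1] / w[*] label, the mex1-Gal4 driver and the temperature-sensitive Gal80, which keeps Gal4 silent at 18 degrees C and releases it at 29 degrees C. Flies spent 6 days at the lower and 4 days at the higher temperature, and are labelled as adults of 10 days. The control carries UAS-GFP and no dsxRNAi insertion, so the effect of dsx knockdown and that of the transgenic stock cannot be told apart. The labels do not say how many guts went into a library or whether replicates came from separate cultures, so p-values measure the spread between these libraries, which may be technical.

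Enterocytes are large polyploid cells whose apical face is a brush border of microvilli, supported by actin and class I myosins. Near the apex their lateral membranes are sealed by smooth septate junctions, the form of septate junction found in the fly midgut, where vertebrates use tight junctions. The membrane proteins Mesh, Snakeskin (Ssk) and Tetraspanin 2A (Tsp2A) form the core of this junction, depend on each other to reach it, and together keep the gut contents from leaking. Many other epithelia of the fly, and glia, use pleated septate junctions, built largely from other proteins.

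Library totals ran from 36212113 to 45068874 counts, and each member had between 4700 and 73083 counts in every library, so counting error was small beside the spread between replicates. Within every group each pair of libraries differed beyond counting noise (chi-square over its degrees of freedom at least 23.7). The dsx transcript stood at 35.2 to 43.1 normalised CPM (counts scaled to a common library size by the TMM method) in dsxRNAi males, against 53.2 to 70.1 in control males. Its log2 change in males was -0.61 (edgeR adjusted p = 0.00643). It stood at 16.5 to 22.3 CPM in dsxRNAi females, against 18.6 to 21.3 in control females (log2 -0.04, adjusted p = 0.946), so the labelled target was not detectably lower there. The female minus the male effect was 0.57 (95% interval 0.19 to 0.96, adjusted p = 0.172). The TMM factors were 0.865 to 0.935 in dsxRNAi males, against 1.03 to 1.11 in control males, and overlapped between the female groups. The members together held 0.348% to 0.407% of counts in dsxRNAi males, against 0.413% to 0.516% in control males. Male changes under dsxRNAi therefore depend on this scaling, and no fit without scaling was run. One control male library, replicate 1, held 64.1 CPM of transcripts of 7 reproductive tract markers, while every other library held at most 1.93 CPM. Results for members that use control males are therefore also given without it where that changes a call. Some counts for the junction, brush border, polarity and adhesion lists are given without it too. The call of dsx and the calls of markers of other cells are given only with it, so their dependence on this library was not tested.

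All 8 genes were abundant. Their mean levels lay between the 91.3rd percentile (nub) and the 99.2nd percentile (Myo61F) of all genes tested, in CPM not corrected for length. Transcripts of other cells were present too, the 9 markers of progenitor cells summing to 60.4 to 104 CPM per library and the 11 of visceral muscle to 1649 to 2212 CPM.

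Between genes, levels can be compared only per length, here as normalised CPM per kilobase of merged exon. Ssk, encoding the small membrane protein of the smooth septate junction, was the highest, at 543 ± 43.3 CPM per kilobase (SD, n = 12 libraries of all groups), and Myo61F, encoding a brush border myosin, came next at 403 ± 30.4. Ssk exceeded Myo61F in 12 of 12 libraries. mesh followed at 222 ± 47.9 CPM per kilobase, Tsp2A at 210 ± 25.2 and mex1 at 175 ± 20.9. The ranges of these neighbours in the order overlapped, mesh being above Tsp2A in 8 of 12 libraries and Tsp2A above mex1 in 11 of 12. Myo31DF, encoding the other brush border myosin, stood at 121 ± 8.91 CPM per kilobase, below mex1 in 12 of 12 libraries. cora (37.3 ± 9.38) and nub (32.0 ± 4.64) were lowest, 3.23-fold or more below Myo31DF, and overlapped each other. The core junction proteins therefore did not have equal transcript levels, Ssk standing well above mesh and Tsp2A.

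**Figure D1:**
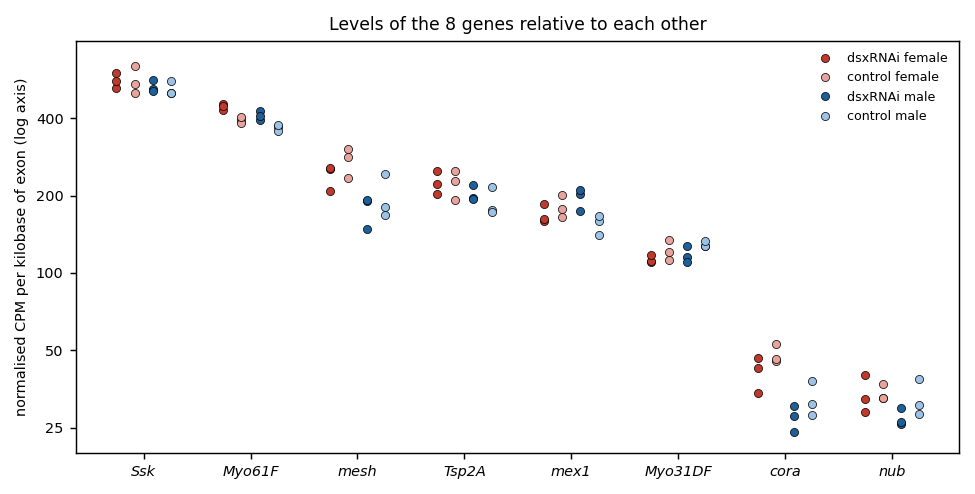
Normalised CPM per kilobase of exon on a log axis, for each gene (columns) and library (points), coloured by group, 3 libraries a group. Ssk and Myo61F lie above all other genes in every library, and cora and nub lie lowest.

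mex1 (FBgn0004228, 3L:15517424-15519592, minus strand of dm6) encodes a small midgut membrane protein, and its regulatory region drives the Gal4 used in all flies here. Its level was 247, 256 and 212 CPM in dsxRNAi males, against 171, 194 and 203 CPM in control males. After scaling, each dsxRNAi male library lay above each control male library, by little at the nearest pair. As shares of the library totals the ranges overlapped. dsxRNAi male 3 had 7181 mex1 counts of 36212113, against 9164 of 40915962 in control male 3. The mean was 238 ± 23.1 CPM in dsxRNAi males, against 189 ± 16.2 in control males (SD, n = 3 each), a log2 change of 0.33 with a 95% interval of 0.11 to 0.56. This missed the threshold for a call, an adjusted p under 0.05 over all genes tested (edgeR quasi-likelihood test, adjusted p = 0.0516). Over the alternative settings the adjusted p ran from 0.0147 to 0.166, and without dsxRNAi male 3 the log2 change was 0.43 (adjusted p = 0.0282), while without control male 1 it was 0.27 (adjusted p = 0.166). It also passed without control female 1 (adjusted p = 0.0341) or control female 2 (adjusted p = 0.0491), libraries that enter only the estimate of spread.

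In females mex1 stood at 195, 197 and 225 CPM under dsxRNAi, against 246, 216 and 202 CPM in controls. The ranges overlapped, with a log2 change of -0.11 (95% interval -0.33 to 0.12, adjusted p = 0.737). The female effect minus the male effect was -0.44 on the log2 scale (95% interval -0.76 to -0.12), which did not pass the threshold (adjusted p = 0.199). The transcript of Gal4 itself was not measured.

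nub (FBgn0085424, 2L:12587625-12628135, plus strand) encodes Pdm1, a POU-domain transcription factor of differentiated enterocytes, and the counts sum its isoforms. Its level ran from 152 to 212 CPM in dsxRNAi females, against 173 to 196 in control females, and from 137 to 157 CPM in dsxRNAi males, against 150 to 204 in control males. The ranges overlapped in both sexes. The log2 change was -0.02 in females (95% interval -0.31 to 0.27) and -0.25 in males (95% interval -0.55 to 0.04, adjusted p = 0.232). Fewer cells of a type and less RNA per cell cannot be told apart in such whole-tissue libraries.

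edgeR called neither brush border myosin under dsxRNAi. Myo61F (FBgn0010246, 3L:1318480-1329617, plus strand) had 1697, 1793 and 1762 CPM in dsxRNAi females, against 1563, 1520 and 1602 CPM in control females. In males it had 1687, 1551 and 1611 CPM under dsxRNAi, against 1462, 1409 and 1483 CPM in controls. In each sex every dsxRNAi library was above every control library after scaling, and the differences were small. In males this order rests on the TMM factors. As shares of the library totals, each dsxRNAi male library was below each control male library. For example, dsxRNAi male 2 had 60461 counts of 45068874, against 63123 of 41794835 in control male 1. The log2 change was 0.16 in females (95% interval -0.01 to 0.34, adjusted p = 0.374) and 0.16 in males (95% interval -0.02 to 0.33, adjusted p = 0.216), by edgeR. DESeq2 called both (adjusted p = 0.0378 in females and adjusted p = 0.0139 in males).

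Myo31DF (FBgn0086347, 2L:10491814-10506779, minus strand), whose product also sets the handedness of the looping gut, stood at 476 to 508 CPM in dsxRNAi females, against 487 to 578 in control females. In males it stood at 475 to 552 CPM under dsxRNAi, against 550 to 573 CPM in controls. The log2 change was -0.12 in females (95% interval -0.30 to 0.07) and -0.13 in males (95% interval -0.32 to 0.06), with overlapping ranges and adjusted p-values of 0.629 and 0.341. An antisense RNA annotated opposite 479 exon bases of Myo31DF had 18 counts in all 12 libraries together. The strand setting of the counting is not stated, so how these shared bases affected the count of Myo31DF cannot be told.

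Within a library the ratio of the myosins does not depend on the scaling of libraries. Myo61F over Myo31DF, per kilobase, was 3.92 ± 0.149 in dsxRNAi females and 3.24 ± 0.331 in control females (SD, n = 3 each). It was 3.48 ± 0.199 in dsxRNAi males and 2.84 ± 0.0533 in control males. In both sexes the dsxRNAi libraries all lay above the control libraries, with differences of 0.28 and 0.29 on the log2 scale. The exact two-sided permutation test gave p = 0.1 in each sex, the smallest that 3 libraries against 3 allow, and an adjusted p of 0.2 over the 20 ratio comparisons made, of which 10 had ranges that did not overlap.

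**Figure D2:**
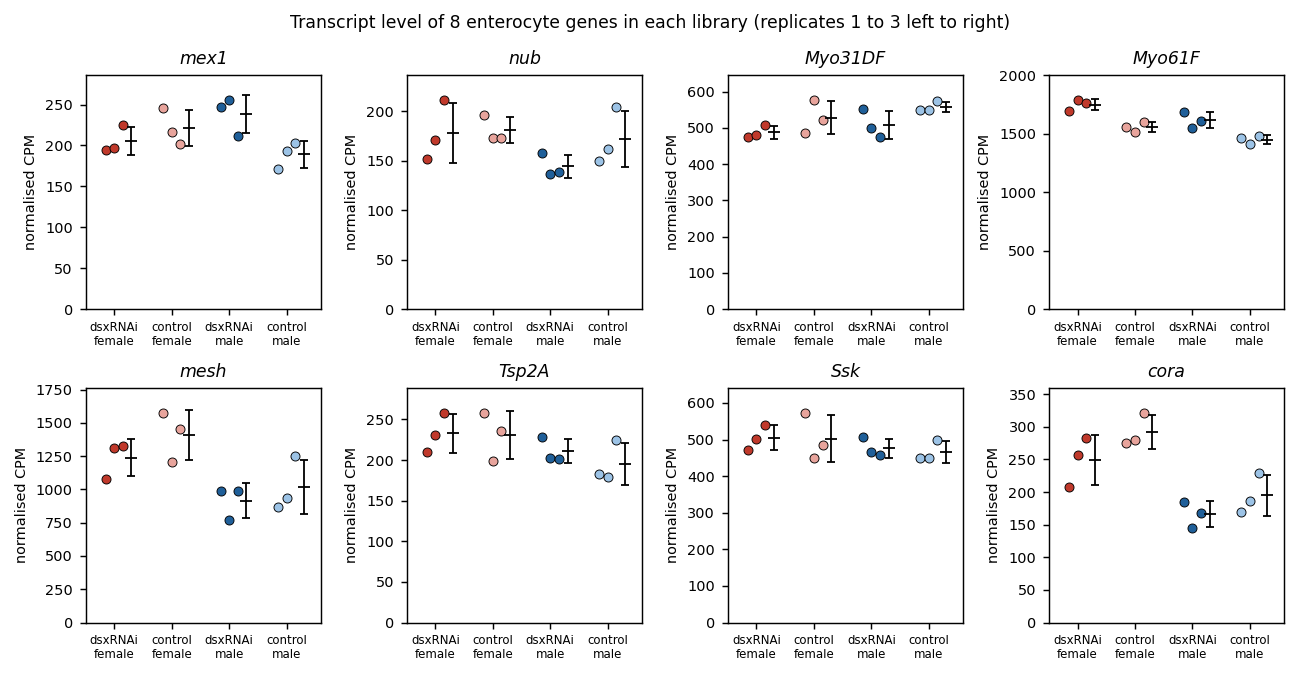
Normalised CPM (vertical axes from 0) of the 8 genes in the 12 libraries, with the mean ± SD of each group beside its points. cora is higher in females than in males in each genotype, and Myo61F in dsxRNAi libraries lies above its control in each sex, by small amounts.

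The genes of the smooth septate junction core showed no called change under dsxRNAi. mesh (FBgn0051004, 3R:31178389-31195762, minus strand) had 1076, 1314 and 1328 CPM in dsxRNAi females, against 1575, 1207 and 1456 CPM in control females. In males it had 990, 768 and 991 CPM under dsxRNAi, against 867, 934 and 1250 CPM in controls. The groups overlapped in both sexes, and mesh had some of the widest intervals among the members, with a log2 change of -0.19 in females (95% interval -0.54 to 0.16) and -0.15 in males (95% interval -0.50 to 0.20). The male value turned to 0.03 without control male 3, the library with the highest mesh among control males.

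Tsp2A (FBgn0024361, X:1346553-1348143, plus strand) stood at 210 to 258 CPM in dsxRNAi females, against 199 to 258 in control females. In males it stood at 202 to 229 CPM under dsxRNAi, against 179 to 225 CPM in controls. Ssk (FBgn0036945, 3L:20188522-20189779, plus strand) stood at 472 to 540 CPM in dsxRNAi females, against 449 to 572 in control females, and at 458 to 506 CPM in dsxRNAi males, against 448 to 500 in control males. The ranges of both genes overlapped throughout. For Ssk the log2 changes were 0.00 in females (95% interval -0.21 to 0.22) and 0.03 in males (95% interval -0.19 to 0.25), intervals that together span 0.863-fold to 1.19-fold. For Tsp2A they were 0.01 (95% interval -0.25 to 0.27) and 0.11 (95% interval -0.15 to 0.37).

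hoka, listed in the table under its older name CG13704, encodes a further membrane protein that the smooth septate junction needs. It was no member but belongs to the same junction. It stood at 220, 242 and 273 CPM in dsxRNAi females, against 272, 218 and 252 CPM in control females, and at 199, 173 and 194 CPM in dsxRNAi males, against 212, 215 and 243 CPM in control males. In males each dsxRNAi library lay below each control library, and the change of -0.24 on the log2 scale was not called.

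cora (FBgn0010434, 2R:19229063-19243751, plus strand) encodes Coracle, a FERM-domain protein that ties septate junctions to the cytoskeleton. Its level was 207, 257 and 283 CPM in dsxRNAi females, against 276, 279 and 321 CPM in control females. In males it was 185, 145 and 169 CPM under dsxRNAi, against 169, 186 and 230 CPM in controls. The ranges overlapped in each sex, and the log2 change was -0.23 in females (95% interval -0.53 to 0.07, adjusted p = 0.515) and -0.23 in males (95% interval -0.53 to 0.07, adjusted p = 0.3).

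Counted over the 8 genes, 0 were called under dsxRNAi in females by edgeR, 0 had an unadjusted p under 0.05, and DESeq2 called 1, Myo61F. Over all genes tested edgeR called 3.46% in this contrast, so 0 of 8 is close to the background. DESeq2 called 601 of the 9686 genes tested. The share of all genes at an unadjusted p under 0.05 is not given for any contrast. In males edgeR called 0 of 8, 1 (mex1) had an unadjusted p under 0.05, and DESeq2 called 2, mex1 and Myo61F. Over all genes tested edgeR called 14.6% in males, and DESeq2 called 1793 of the 9686. Group ranges did not overlap for 1 of 8 members in females (background 17%) and for 2 of 8 in males (background 38.6%). The median log2 change of the members was -0.06 in females, where that of all genes tested was -0.00, and -0.05 in males, where that of all genes tested was -0.01. No member passed the test of the difference between the female and male effects (0 by edgeR and 0 by DESeq2, 1 with an unadjusted p under 0.05, mex1; background 0.805%).

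**Figure D3:**
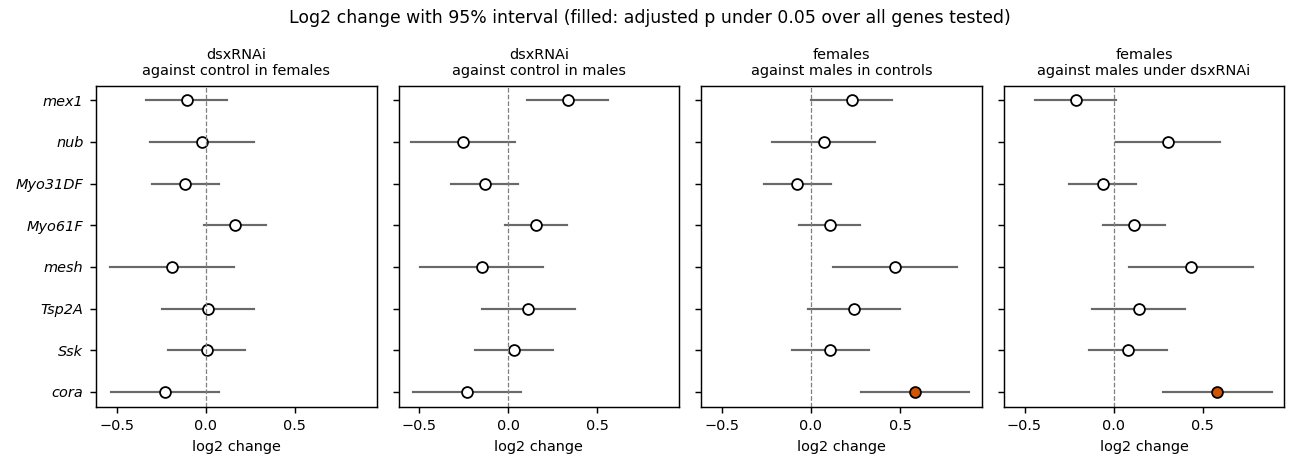
Log2 change with its 95% interval for each gene in 4 contrasts, filled where the adjusted p over all genes tested was under 0.05. The only filled points are those of cora in both comparisons of females with males.

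Between the sexes, cora was the 1 member called in each genotype, higher in females. In controls it averaged 292 ± 25.3 CPM in females, against 195 ± 31.6 in males (SD, n = 3 each), a log2 difference of 0.58 (95% interval 0.28 to 0.89, adjusted p = 0.0112). Under dsxRNAi it averaged 249 ± 38.4 CPM in females, against 166 ± 19.7 in males, again a log2 difference of 0.58 (95% interval 0.28 to 0.89, adjusted p = 0.0175). In each genotype the 3 female libraries lay above the 3 male ones. The exact two-sided permutation test gave p = 0.1 in each, its smallest value. The difference between these sex differences was 0.00 (95% interval -0.43 to 0.43).

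The calls of cora stood close to the threshold. In controls the log2 difference was 0.49 (adjusted p = 0.0536) without control male 1, the library with reproductive tract transcripts, and 0.51 (adjusted p = 0.0514) without control female 3. Under dsxRNAi it was 0.55 (adjusted p = 0.0533) without dsxRNAi female 2, 0.48 (adjusted p = 0.0788) without dsxRNAi female 3 and 0.49 (adjusted p = 0.0736) without dsxRNAi male 2. The direction held in each of these fits.

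mesh was next in size. In controls it averaged 1412 ± 188 CPM in females, against 1017 ± 205 in males (SD, n = 3 each), with overlapping ranges through control male 3, a log2 difference of 0.47 (95% interval 0.13 to 0.82) and an adjusted p of 0.055. Under dsxRNAi it averaged 1239 ± 142 CPM in females, against 916 ± 129 in males, without overlap, a log2 difference of 0.44 (95% interval 0.09 to 0.78, adjusted p = 0.0873). DESeq2 called mesh higher in females in both genotypes (adjusted p = 0.017 in controls and adjusted p = 0.0445 under dsxRNAi). edgeR called it in controls without control male 3 (log2 0.65, adjusted p = 0.017), without control female 2 (adjusted p = 0.0275) or without dsxRNAi male 2 (adjusted p = 0.0348), and without control male 1 the log2 difference was 0.37 (adjusted p = 0.191).

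The other junction genes showed less of this. In controls Tsp2A, the X-linked member, differed by 0.24 between females and males (log2, 95% interval -0.02 to 0.50, adjusted p = 0.183) and Ssk by 0.11 (95% interval -0.11 to 0.33, adjusted p = 0.498). Under dsxRNAi the differences were 0.14 for Tsp2A and 0.08 for Ssk, and hoka was called higher in females, averaging 245 ± 26.1 CPM there, against 189 ± 13.8 in males (log2 0.38, adjusted p = 0.033). The hoka call was lost without dsxRNAi female 2 or 3, any of the dsxRNAi male libraries or control male 2.

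As a ratio within libraries, mesh over Ssk per kilobase was 0.488 ± 0.0281 in control females and 0.377 ± 0.0512 in control males (SD, n = 3 each), and 0.426 ± 0.0296 in dsxRNAi females and 0.334 ± 0.0449 in dsxRNAi males. In both genotypes the female libraries lay above the male ones. mesh over Tsp2A was likewise higher in females without overlap, at 1.23 ± 0.0131 in control females, against 1.04 ± 0.0815 in control males, and at 1.07 ± 0.0641 in dsxRNAi females, against 0.870 ± 0.114 in dsxRNAi males. In females both ratios were lower in the dsxRNAi libraries than in the control libraries without overlap, by 0.20 each on the log2 scale. Ssk over Tsp2A, in contrast, overlapped in all 4 contrasts and ranged from 2.39 to 2.91 over the 12 libraries. Each exact permutation p among these ratios was 0.1 or higher, so none can pass a threshold of 0.05.

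**Figure D4:**
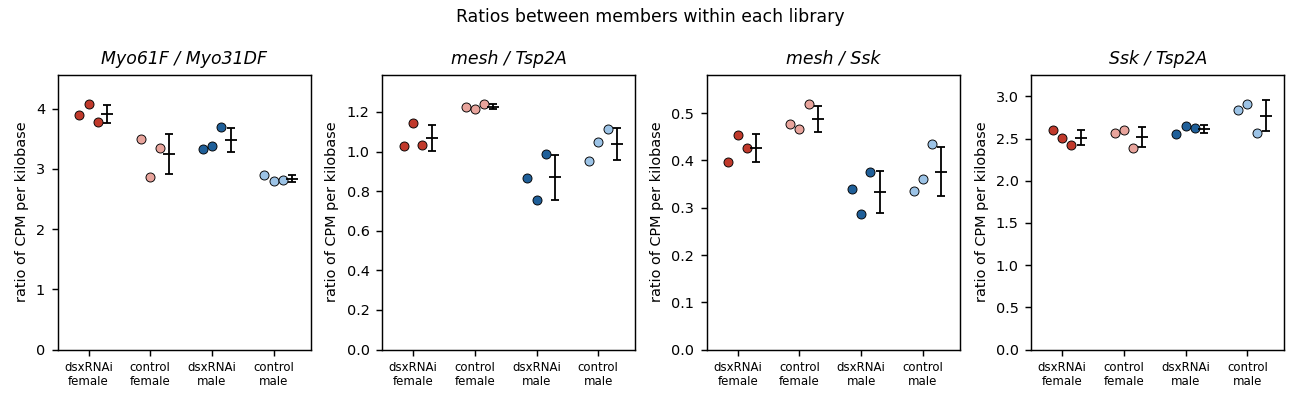
Ratio of normalised CPM per kilobase between pairs of members in each library, with mean ± SD per group, vertical axes from 0. Myo61F over Myo31DF is higher in dsxRNAi libraries in each sex, mesh over Ssk is higher in females, and Ssk over Tsp2A stays between 2.39 and 2.91.

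The other members overlapped between the sexes or differed by little. Myo61F in females lay above males in both genotypes without overlap, by 0.11 in controls and 0.12 under dsxRNAi on the log2 scale (adjusted p = 0.392 and adjusted p = 0.352). Myo31DF differed by -0.08 and -0.06. nub differed by 0.07 in controls and 0.30 under dsxRNAi (95% interval 0.01 to 0.60, adjusted p = 0.144). mex1 differed by 0.23 in controls (95% interval 0.00 to 0.46, adjusted p = 0.15) and by -0.21 under dsxRNAi (95% interval -0.44 to 0.02, adjusted p = 0.192), opposite in sign. In all, 1 of 8 members was called in controls, where 20% of all genes tested were called and 10.7% were called higher. Likewise 1 of 8 was called under dsxRNAi, where 14.8% were called and 7.76% were called higher. Shares of members called were thus near the background, with 3 at an unadjusted p under 0.05 and 2 by DESeq2 in each. Of the 9686 genes tested DESeq2 called 2289 between the sexes in controls and 1800 under dsxRNAi. The female and male ranges did not overlap for 2 members in controls (background 37.4%) and for 3 under dsxRNAi (background 35.7%). The members' median log2 difference was 0.17 in controls and 0.13 under dsxRNAi, where all genes tested had -0.01 and 0.01.

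Markers of other cells differed between the sexes beside these values, against backgrounds in controls of 9.27% called lower and 10.7% called higher. In controls 9 of 12 tested enteroendocrine markers, 4 of 11 of visceral muscle, 3 of 5 of neurons and glia, 2 of 8 of Malpighian tubule and hindgut and 1 of 4 of trachea were lower in females. The median log2 difference of the 4 tracheal markers was 0.25, in the opposite direction. The 4 copper cell and 6 tested fat body and hemocyte markers had 2 higher each, and the 9 progenitor markers had 0 called (2 lower at an unadjusted p under 0.05, 0 by DESeq2). Summed enteroendocrine markers ran from 472 to 595 CPM in control females, against 766 to 808 in control males, and summed fat body and hemocyte markers from 99.01 to 128 CPM in control females, against 50.5 to 74.5 in control males. The glial gene repo was near 0 in every library, and none of the 7 reproductive tract markers passed the filter. In dsxRNAi females against dsxRNAi males 4 of 12 enteroendocrine and 1 of 11 visceral muscle markers were lower, where 7.06% of all genes tested were. In the same contrast 2 of 4 tracheal and 2 of 6 fat body and hemocyte markers were higher, where 7.76% of all genes tested were. The counts of called markers in controls include control male 1, and whether they depend on it was not tested. The part of these cells in the sex difference of cora and mesh was not tested.

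Under dsxRNAi in males, 5 of 12 enteroendocrine, 2 of 5 neuron and glia, 2 of 8 Malpighian tubule and hindgut, 1 of 11 visceral muscle, 1 of 9 progenitor and 1 of 4 trachea markers were lower, where 6.59% of all genes tested were. edgeR called no copper cell or fat body and hemocyte marker there, and DESeq2 called 1 fat body and hemocyte marker lower. At an unadjusted p under 0.05 the copper cell gene lab was higher and the hemocyte gene Hml lower. In females 0 markers of any of these lists were called by edgeR under dsxRNAi. DESeq2 called 1 enteroendocrine and 1 visceral muscle marker lower there, and 4 markers higher and 7 lower had an unadjusted p under 0.05. For the female minus the male effect, edgeR called 0 markers of these lists, and DESeq2 called 1 enteroendocrine marker higher. At an unadjusted p under 0.05, 5 of 12 enteroendocrine and 4 of 5 neuron and glia markers were higher for that effect. Each other list had at most 1 in either direction.

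The wider septate junction list, chosen with earlier results of these data known, held 26 genes of pleated or shared junctions, cora among them. The list median in dsxRNAi males against control males was -0.19, where that of all genes tested was -0.01. In dsxRNAi males 7 of the 26 were lower and 0 higher, against a background of 6.59% called lower. They were nrv2, kune, Cont, Nrg, sinu, bark and nrv1, which encode a sodium pump subunit, a claudin-like protein, the cell adhesion proteins Contactin and Neuroglian, another claudin-like protein, a protein of tricellular junctions and a further sodium pump subunit. nrv2 averaged 4.93 ± 0.468 CPM in dsxRNAi males, against 8.62 ± 0.160 in control males (SD, n = 3 each, log2 -0.81, adjusted p = 0.0016), and kune 9.61 ± 0.984 and 13.3 ± 0.763 CPM in the same groups (log2 -0.46, adjusted p = 0.00938). nrv1 averaged 291 ± 31.8 CPM in dsxRNAi males, against 363 ± 21.7 in control males (log2 -0.32, adjusted p = 0.0484). The count fell to 1 when dsxRNAi male 1 was left out, and to 4 when dsxRNAi male 2, control male 2 or control male 3 was. The neuron and glia markers that were lower in the same contrast were elav and moody, whose part was not tested. None of the 4 smooth junction genes was called there by edgeR or DESeq2, and 1, hoka, had an unadjusted p under 0.05.

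Between control females and control males, 2 of the 26 genes were higher in females, l(2)gl and cora, and 5 were lower, vari, Atpalpha, nrv2, Nrg and nrv1, where 10.7% of all genes tested were called higher and 9.27% lower. l(2)gl, a basolateral polarity gene, averaged 403 ± 17.02 CPM in control females, against 248 ± 13.2 in control males (log2 0.70, adjusted p = 0.00154). vari, a scaffold protein gene of pleated junctions, averaged 7.93 ± 0.433 CPM in control females, against 13.5 ± 1.21 in control males (log2 -0.77, adjusted p = 0.000189). The number higher was 1 without control female 3 or control male 1. Under dsxRNAi 4 were higher in females, l(2)gl, bark, cora and sinu, and 2 lower, vari and Atpalpha, where 7.76% of all genes tested were called higher and 7.06% lower. The number higher was 2 without dsxRNAi female 2, dsxRNAi female 3 or dsxRNAi male 2, and the number lower was 1 on leaving out any of 9 of the 12 libraries. In dsxRNAi females against control females 0 of 26 were called (3 lower at an unadjusted p under 0.05, 1 lower by DESeq2). Of the 7 genes lower in males, kune stood at log2 -0.38 (adjusted p = 0.0648) and nrv2 at -0.33 (adjusted p = 0.246) in this female contrast. Nrg, nrv1, Cont and bark stood at -0.07 to -0.02 there, and sinu at 0.07. For the female minus the male effect, edgeR and DESeq2 each called 0 of 26, and 6 were higher at an unadjusted p under 0.05. A drop confined to males was therefore not shown.

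**Figure D5:**
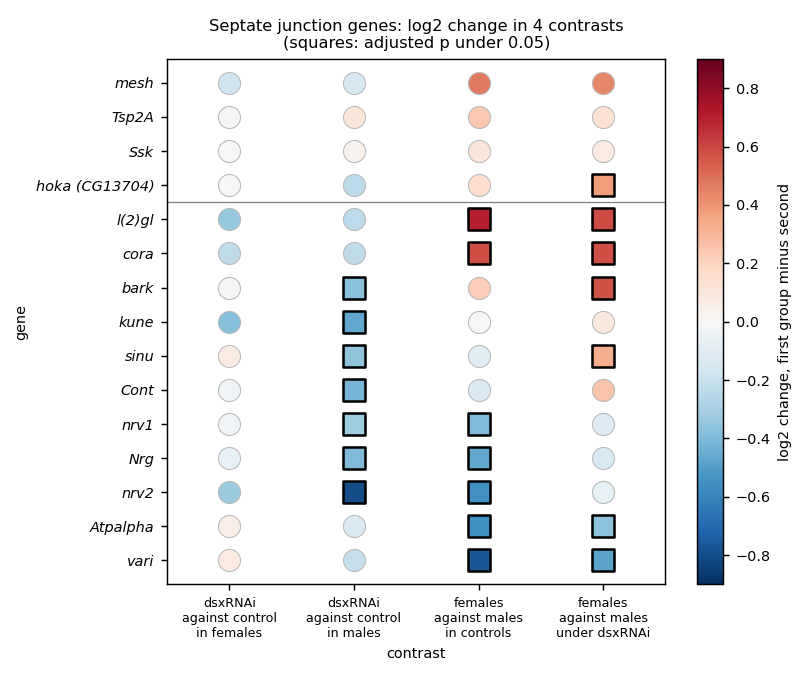
Log2 change (colour) of the 4 smooth septate junction genes and, under the line, the 11 genes of the pleated and shared list called in at least 1 contrast (rows) in 4 contrasts (columns), with squares where the adjusted p was under 0.05 and circles elsewhere. The rows below the line were chosen for their calls, and the column of dsxRNAi females against control females has no square.

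Genes around the brush border, polarity and adhesion had at most 2 calls in a list and contrast. Of all genes tested 6.59% were called lower in dsxRNAi males. In females against males, 10.7% were called higher and 9.27% lower in controls, and 7.76% higher and 7.06% lower under dsxRNAi. Of 19 tested brush border and apical cytoskeleton genes 1, qua, a villin-like gene, was lower in dsxRNAi males (0.115 ± 0.0906 CPM in dsxRNAi males, against 1.17 ± 0.246 in control males, adjusted p = 0.00373), and it was also the 1 gene called lower in control females against control males. Its levels were low in the other groups too, at 0.234 CPM in dsxRNAi females and 0.277 CPM in control females, so qua passed the filter through control males, and both calls are against that group. The second call was lost when control female 3 or either of control males 1 and 3 was left out. Of 14 apical polarity and adherens junction genes, baz, a polarity scaffold, and shg, the E-cadherin gene, were lower in dsxRNAi males, baz at 37.8 ± 1.61 CPM under dsxRNAi, against 50.9 ± 8.02 in controls (adjusted p = 0.0441), and shg at 42.5 ± 5.16 CPM under dsxRNAi, against 52.1 ± 3.91 in controls (adjusted p = 0.0483). That number fell to 0 or 1 on leaving out any 1 of the 12 libraries. At an unadjusted p under 0.05, 6 of the 14 were lower there, DESeq2 called 3 lower, and the list median was -0.14, where that of all genes tested was -0.01. sdt, an apical polarity scaffold gene, was higher in control females than in control males (log2 0.29, adjusted p = 0.0291, a call lost when control female 3 or either of control males 1 and 2 was left out), and cno, which encodes a linker of adherens junctions to actin, was higher in dsxRNAi females than in dsxRNAi males (log2 0.36, adjusted p = 0.0128, a call lost without dsxRNAi male 2). Of 15 integrin adhesion genes, the laminin genes LanA (log2 -0.78) and wb (log2 -0.66) were lower in dsxRNAi males, and the integrin activator gene Fit1 (log2 -0.35) and the integrin subunit gene mew (log2 -0.36) lower in control females against control males. The number lower in control females was 0 without control female 3 or control male 3 and 1 without control female 1 or control male 1.

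The list of enterocyte identity genes and regulators held 7, mex1 and nub included. Of these, srp, a GATA transcription factor gene, was lower in dsxRNAi males (0.951 ± 0.117 CPM in dsxRNAi males, against 2.13 ± 0.144 in control males, adjusted p = 0.00326). It was the 1 gene of the 7 called there by edgeR. Its level was low in every group and highest in control males, at 1.00 CPM in dsxRNAi females and 1.41 CPM in control females. cad, a homeobox gene of the posterior gut, was higher in dsxRNAi females than in dsxRNAi males (90.2 ± 1.81 against 67.3 ± 10.2 CPM, adjusted p = 0.0141), a call lost without dsxRNAi female 3. In dsxRNAi females against control females none of these 4 lists had a call by edgeR. DESeq2 called 1 gene there, Myo61F, and 3 genes higher and 1 lower had an unadjusted p under 0.05. For the female minus the male effect, edgeR called 0 genes of these 4 lists. DESeq2 called 1 brush border and 1 integrin adhesion gene higher for that effect.

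Some libraries were high or low within their group for most members. All 8 were lowest of their group in dsxRNAi female 1, and all 8 were highest of their group in control male 3. dsxRNAi female 3 was highest for 7 members, dsxRNAi male 1 for 6 and control female 1 for 5, though control female 1 was also lowest for 2, Myo31DF and cora. control female 2 was lowest for 5 and highest for 1. control male 1, the library with reproductive tract transcripts, was lowest for 5 and highest for 0. Averaged over the members, the high libraries stood at 0.16 (control male 3), 0.13 (dsxRNAi female 3), 0.11 (dsxRNAi male 1) and 0.08 (control female 1) from their group means on the log2 scale. The low ones stood at -0.13 (dsxRNAi female 1), -0.11 (control male 1) and -0.08 (control female 2). Without dsxRNAi female 1 the count of members called under dsxRNAi in females was still 0, and without control male 3 that in males was still 0.

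Patterns over all 12 libraries were compared by the root mean square difference of log2 CPM, after each gene's own mean was taken away, which gives a description and no test. Among the members the nearest were Tsp2A and Ssk, which differed by 0.0781, with Ssk the second nearest of 7615 genes to Tsp2A, whose median distance to all genes was 0.236. In the other direction Tsp2A ranked 28 for Ssk, whose median distance to all genes was 0.202. cora and mesh differed by 0.124, each the fifth nearest to the other, with median distances to all genes of 0.388 for cora and 0.343 for mesh. hoka ranked 27 for mesh, 414 for Tsp2A and 1360 for Ssk, and 11 for nub and 141 for cora. Outside the members, the nearest genes to mesh were msn (0.0866) and dome (0.0992), to cora CG11658 (0.0773) and l(2)gl (0.111), and to nub RhoGAP71E (0.0627) and Fas3 (0.0664). The nearest to mex1 were Lfg (0.0823) and Sras (0.0975). For Myo61F they were AspRS-m (0.0454) and NAT1 (0.0475), for Myo31DF CG30389 (0.0548) and CG13384 (0.0643), for Tsp2A CG3719 (0.0718) and Rop (0.0797), and for Ssk CG18480 (0.0537) and Eb1 (0.0549). These points share libraries and group differences, and small distances come easily to genes that vary little.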

How the data were processed

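The authors deposited raw read counts per gene for 12 libraries, made from poly-A RNA with a directional kit, per the labels' protocols. Reads were aligned with TopHat2 2.0.11 to dm6 and assigned with featureCounts, according to the tools listed per the submitters' processing notes. Neither the strand setting nor the annotation release is stated in the sources used here. Positions and exon lengths came from Ensembl release 115 on dm6 coordinates, in which 17252 of 17558 row identifiers were found. The 171 rows without a symbol held 2.17% of counts and were tested but not named.

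Tests used edgeR 4.0.16 under R 4.3.3. Its expression filter (minimum count 10) kept 9686 genes, which were scaled by the TMM method and fitted by a robust quasi-likelihood model with 4 group means over all 12 libraries. The threshold for a call was an adjusted p (Benjamini-Hochberg, all genes tested) under 0.05. Adjusted p-values are from this test unless DESeq2 1.42.0 is named. Fitted log2 changes used a prior count of 0.125. Standard errors and 95% intervals were derived from the quasi-likelihood F statistic. Levels are TMM-scaled CPM.

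The members and the 15 gene lists were chosen with earlier results of these data known. Genes were named by rule: all members, up to 3 called genes of a list and contrast with the smallest p, and, for each member, the 2 nearest genes in pattern whose mean log2 CPM was 1 or more. Further called genes of the septate junction list were named after their values were seen. The symbols Sip1, wupA, btl and vas of the lists were not matched and are not analysed here, nor are promoter motifs. Alternatives were other scalings, DESeq2, other filters, only the groups compared, no robust estimation, a replicate block, each library left out and an adjusted p under 0.01. Python 3.11.15 with matplotlib 3.10.9 drew the figures.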

Additional observations from a re-analysis of the deposited data

How the results depend on the processing

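The count of members called under dsxRNAi was 0 in both sexes. In females DESeq2 gave 1. In males it was 1 with relative log expression scaling, with TMM factors from all but the 100 most abundant genes and with a minimum count of 50, and 2 by DESeq2. Between control females and control males the count of 1 became 0 at an adjusted p under 0.01, and 2 by DESeq2 and without an expression filter. Between dsxRNAi females and dsxRNAi males the count of 1 became 0 at an adjusted p under 0.01 and 2 by DESeq2. Leaving out 1 library at a time gave 0 to 1 in males under dsxRNAi, 0 to 2 between the sexes in controls and 0 to 1 between the sexes under dsxRNAi.

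The replicate block changed the count of members called in 1 contrast, control females against control males, where it was 2 with mesh added (log2 0.48, adjusted p = 0.0404). The numbers were not taken to pair libraries, since in none of the 4 contrasts were all 3 same-numbered correlations over 0.1 (-0.299 to 0.113). They were 0.156 to 0.208 between dsxRNAi females and control males, which were not compared. In dsxRNAi against control females 6 of 6 libraries correlated best with their own number, a hint from the data only, and in the other 3 contrasts 1 or 2 of 6 did.

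No called member reversed. Reversals were of uncalled values near 0. In dsxRNAi against control females, Ssk was -0.0017 without a filter, -0.0021 at a minimum count of 50 and -0.0025 with only the groups compared. For the difference between the female and male effects, Myo61F was -0.0031 with relative log expression scaling, -0.0031 by DESeq2 and -0.0117 without a filter. Myo31DF was -0.0051 without a filter. cora was -0.012 with relative log expression scaling, -0.0037 without the 100 most abundant genes, -0.012 by DESeq2, -0.0201 without a filter, -0.0081 at a minimum count of 50 and -0.0169 with the replicate block. With 1 library left out, values that crossed 0 ran from -0.16 to 0.082 for nub, -0.093 to 0.098 for Tsp2A and -0.080 to 0.11 for Ssk in females, from -0.25 to 0.026 for mesh in males and from -0.018 to 0.21 for nub between the sexes in controls. For the difference of effects they ran from -0.058 to 0.059 for Myo31DF, -0.037 to 0.028 for Myo61F, -0.22 to 0.063 for mesh, -0.13 to 0.076 for Ssk and -0.14 to 0.11 for cora. Of 352 member log2 changes under the other settings 327 kept direction and side of the threshold, as did 433 of 480 with 1 library left out. The cause was not tested.

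The counts over all genes varied more. Under dsxRNAi in females 335 were called, against 160 at an adjusted p under 0.01, 601 by DESeq2 and 221 with only the groups compared, and in males 1418 against 670 at an adjusted p under 0.01. Between the sexes 1937 in controls became 1018 and 1436 under dsxRNAi became 455 at an adjusted p under 0.01, and for the difference of effects 78 became 22 there and 341 by DESeq2. Leaving out 1 library gave as few as 204 in females (without dsxRNAi female 2, and 214 without control female 3), 856 in males (without control male 2, and 921 without control male 3) and 637 between the sexes under dsxRNAi (without dsxRNAi female 3, and 671 without dsxRNAi male 2), and 33 to 127 for the difference of effects, so the background shares move with single libraries. The 7 pleated junction genes lower in dsxRNAi males were 2 at an adjusted p under 0.01 and 4 without a filter or with only the groups compared. Lengths from the longest transcript raised the level of mex1 to 207, nub to 37.5 and Myo61F to 444 CPM per kilobase, with the order unchanged.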
